A study of Mus musculus with 2 samples.

Results

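The 10 genes followed here bring fatty acids into heart cells and carry them inside: Lpl, Gpihbp1, Angptl4 and Vldlr, which act on lipoproteins at the vessel wall, the membrane proteins Cd36 and Slc27a1, the cytosolic carriers Fabp3, Fabp4 and Fabp5, and the activating enzyme Acsl1. They were chosen by gene name, and all 10 were found among the 55536 annotated genes of the deposited gene tables. Hearts of female B6CASTF1/J mice, first-generation offspring of C57BL/6J and CAST/EiJ, gave 2 total RNA libraries at an age between 18 and 20 months. The libraries form 1 group with no treatment and no second genotype, so there was no contrast between conditions and no test of one. Ribosomal RNA was depleted from an input of 300 ng, and ERCC spike-ins, synthetic RNAs of known amount, were included. The labels number the libraries as biological replicates 1 and 2 and name separate biosamples, but the same donor entry, so whether they came from separate animals is not settled and part of the spread may be technical.

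The heart draws most of its energy from long-chain fatty acids, which reach it bound to albumin or inside triglyceride-rich lipoproteins. Lipoprotein lipase is made by cardiac myocytes, carried across the capillary endothelium by GPIHBP1 and held on the luminal side, where it frees fatty acids from the particles. CD36 and fatty acid transport proteins help fatty acids across membranes, small FABP carriers move them through the cytosol, and acyl-CoA synthetases attach coenzyme A so that they can be oxidised or stored. FABP3 is known as the carrier of muscle cells, and FABP4 and FABP5 as those of capillary endothelium, fat cells and macrophages. A whole-heart library mixes these cell types, so fewer cells of a type and less RNA per cell cannot be told apart.

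Levels are given in TPM, transcripts scaled to a fixed library total, a relative abundance per transcript length that allows genes to be compared. The main values come from a gene table with the column layout of the program RSEM, and a second table with the layout of kallisto was summed per gene and set beside it. Expected counts, the reads assigned to genes, totalled 35897521 in replicate 1 and 36926429 in replicate 2. Fold differences between the libraries are set beside an exact interval from the counts, which covers counting error only. All gene coordinates are those of the mouse build mm10.

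The carrier Fabp3 and the lipase Lpl led the set, and the 10 mean levels ran from 2317 TPM down to 2.77 TPM. In order of mean TPM over both libraries, Fabp3 stood first, followed by Lpl, Cd36, Acsl1, Fabp4, Vldlr, Slc27a1, Gpihbp1, Fabp5 and Angptl4. No pair of neighbours in this order overlapped between libraries in the RSEM-layout table. In the kallisto-layout table the order was the same, but the values of Vldlr and Slc27a1 overlapped, so these genes were not separated there. Together the 10 genes held 5523 TPM in replicate 1 and 5586 in replicate 2, which is 1.37% ± 0.0422 (SD, n = 2) of the TPM of nuclear protein-coding genes. Among 22015 such genes, Fabp3 ranked 15, Lpl 21 and Cd36 56 by mean TPM, while Angptl4 ranked 9248. In both libraries 9 members reached 1 TPM, and Angptl4 was the exception.

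**Figure D1:**
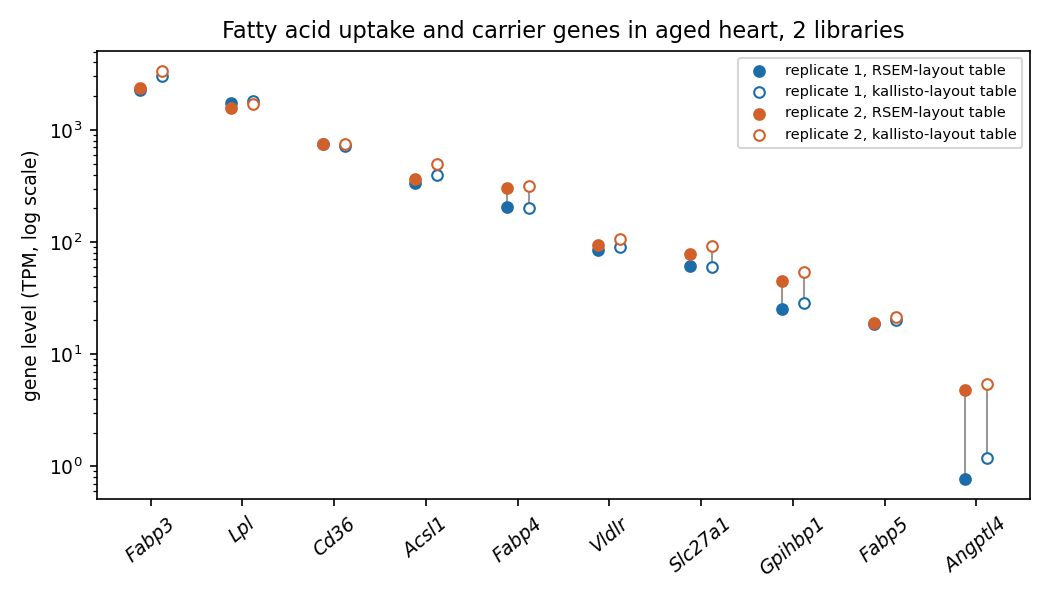
TPM of the 10 genes on a log scale, ordered by their mean in the RSEM-layout table; filled points are that table and open points the kallisto-layout table, blue is replicate 1 and orange replicate 2, and grey lines join the libraries. Fabp3 is highest at 2285 and 2350 TPM, and the widest gap between libraries is that of Angptl4, at 0.77 and 4.76 TPM.

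Lpl, lipoprotein lipase, was the most abundant of the genes acting on lipoproteins. It lies at chr8:68880491-68907448 on the plus strand and measured 1749 TPM in replicate 1 and 1576 in replicate 2, a mean of 1663 ± 122 TPM (SD, n = 2). Replicate 2 was the lower one, with a ratio of 0.913 in CPM, counts scaled to equal library totals (95% interval 0.907 to 0.92). Lpl and Cd36 were the 2 members with a lower TPM in replicate 2. Within a list of 6 triglyceride lipases, Lpl held 86.6% ± 2.74 of the TPM. The next highest, Pnpla2, the lipase that opens the hydrolysis of stored triglyceride, measured 180 and 220 TPM.

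Lpl was spread over a pair of transcripts with the same coding sequence. Lpl-201, of 4115 nt, held 76.2% ± 1.25 of the TPM of Lpl, and Lpl-203, of 1900 nt, held 23.5% ± 1.10 (SD, n = 2). Both carry the identical coding sequence of 1422 nt, and the annotation classes Lpl-203 as a target of nonsense-mediated decay. In the kallisto-layout table the shares were 81.8% and 17.7%. Transcripts with the full coding sequence thus held 99.7% ± 0.149 of Lpl.

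Gpihbp1, the endothelial anchor of the lipase, was far less abundant than its partner and differed more between the libraries. The gene is at chr15:75596628-75599481 on the plus strand and measured 25.2 TPM in replicate 1 and 45.4 in replicate 2. The log2 ratio of Lpl over Gpihbp1 within a library was 6.11 in replicate 1 and 5.12 in replicate 2. Replicate 2 held 1.90 times as many CPM of Gpihbp1 (95% interval 1.71 to 2.12, from 511 and 1001 expected counts). The credibility intervals of TPM deposited by the authors, 22.5 to 27.5 and 41.5 to 47.8, did not overlap. Each such interval belongs to 1 library and does not measure spread between animals or preparations. Gpihbp1-201, the transcript with the longest coding sequence, held 72.4% ± 1.23 of the gene.

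Angptl4, a secreted inhibitor of the lipase made in fat and in heart, was the lowest member and the one furthest apart between libraries. It is at chr17:33773750-33781830 on the minus strand and measured 0.77 TPM in replicate 1 and 4.76 in replicate 2. The counts behind these values were 45 and 275, a ratio in CPM of 5.94 (95% interval 4.32 to 8.33). The kallisto-layout table gave 1.19 and 5.42 TPM. Of the TPM of Angptl4, 78.3% ± 2.42 fell to Angptl4-202, annotated as a target of nonsense-mediated decay, and 20.1% ± 4.65 to the coding Angptl4-201. With so few reads these shares are imprecise.

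The other partners and inhibitors of the lipase formed a list of 11 genes with Gpihbp1 and Angptl4, of which 5 reached 1 TPM in both libraries. Its highest gene outside the members was Apoe, an apolipoprotein, at 96.9 and 123.9 TPM. Apoc1, an apolipoprotein that inhibits lipolysis, measured 0.11 TPM in replicate 1 and 7.57 in replicate 2. Apoa5 was listed at 0 in both libraries, a listing that leaves room for up to 3 counts, equal to 0.0836 and 0.0812 CPM. Of the 11 genes, 9 were higher in replicate 2 by any amount, a count with no share of all genes beside it. Angptl4 and Apoc1, the 2 named above, were 2-fold or more higher with a mean of at least 1 TPM, against 3.3% of all such genes.

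Vldlr, a receptor that binds apolipoprotein E-containing particles rich in triglyceride, was the main lipoprotein receptor by TPM. It is at chr19:27216484-27254231 on the plus strand and measured 85.8 and 95.1 TPM, a mean of 90.5 ± 6.55 TPM (SD, n = 2). It held 67.0% ± 1.40 of the TPM of 7 lipoprotein receptors, ahead of Lrp1 at 24.2 and 25.4 TPM.

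The annotated forms of Vldlr differ by an exon of 84 nt at chr19:27246593-27246676, plus strand, mm10, which lies in the coding sequence. It is known as the exon of the O-linked sugar domain, a stretch next to the membrane that is rich in serine and threonine. The exon is shown because the split of the gene into forms turns on it. Capitals mark its codons for serine or threonine, 10 of 27 whole codons.
Vldlr exon: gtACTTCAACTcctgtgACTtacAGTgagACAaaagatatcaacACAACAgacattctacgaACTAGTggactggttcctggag

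Forms with this exon and forms without it were both present in each library. The form with it, Vldlr-207, measured 51.2 TPM in replicate 1 and 52.6 in replicate 2. That was 57.5% ± 3.04 of the TPM of Vldlr, while the 3 transcripts that skip the exon held 40.4% ± 4.17 (SD, n = 2). The kallisto-layout table gave 56.3% ± 3.69 and 41.5% ± 2.89, within 1 SD of these shares. Vldlr-208, the main coding form without the exon, measured 25.5 and 26.9 TPM, 28.9% ± 0.995 of the gene. Vldlr-201, which also skips the exon, is annotated as a target of nonsense-mediated decay. It measured 5.48 TPM in replicate 1 and 14.4 in replicate 2, 10.7% ± 6.16 of the gene. The forms also differ in length, 7971 nt for Vldlr-207 against 3855 nt for Vldlr-208. The part of that difference in the assignment was not tested.

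Cd36, the main membrane protein for fatty acid uptake in heart, differed least between the libraries in the RSEM-layout table. The gene is at chr5:17781690-17888801 on the minus strand and measured 756 TPM in replicate 1 and 750.5 in replicate 2. The kallisto-layout table gave 723 and 753 TPM, the opposite order, so no direction holds for Cd36. Slc27a1, the fatty acid transport protein known from muscle and fat, is at chr8:71568882-71587302 on the plus strand and measured 60.6 and 78.7 TPM. Its ratio between libraries was 1.30 in TPM and 1.43 in CPM (95% interval 1.37 to 1.49), and 1.55 in the kallisto-layout table, with 59.6 and 92.3 TPM. The log2 ratio of Cd36 over Slc27a1 was 3.64 in replicate 1 and 3.25 in replicate 2.

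Of the 6 SLC27 transporters, Slc27a1 held 90.1% ± 0.823 of the TPM (SD, n = 2). Slc27a4, the next highest, measured 6.50 and 6.29 TPM, and no other family member reached 1 TPM in both libraries. Much of the TPM of Slc27a1 lay outside full coding forms. Its 4 protein-coding transcripts held 45.5% ± 2.89, its 3 retained-intron transcripts 36.7% ± 1.09 and its 2 processed transcripts 17.8% ± 1.80. The 2 transcripts with the full coding sequence held 42.4% ± 4.71. In expected counts, the protein-coding transcripts held 1795 of 3595 in replicate 1 and 2841 of 5273 in replicate 2. The 2 processed transcripts, of 415 and 432 nt, together held 107 counts in replicate 1 and 127 in replicate 2. TPM divides counts by length, and their share of TPM was larger than their share of counts. The kallisto-layout table placed 49.3% ± 1.92 on the protein-coding forms.

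The transcripts of Cd36 start in 3 separate regions, and the tables did not place the reads on the same one. The distal region lies 39.0 kb before the middle one, and the middle one 14.1 kb before the proximal one. In the RSEM-layout table the distal region held 73.8% ± 0.0712 of the TPM of Cd36 (SD, n = 2), and 23.4% ± 0.147 in the kallisto-layout table. The middle region held 18.5% ± 1.27 in the first table and 63.1% ± 4.97 in the second. The gap came mainly from Cd36-203, a full-length form with 41.1% of the gene in one table and 1.18e-05% in the other. Of the 6 transcripts, 5 share the same coding sequence of 1416 nt and held 67.4% ± 0.102 and 76.6% ± 0.147, so the share with the full coding sequence differed less between the tables than the starts did.

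Fabp3, the heart-type carrier, was the highest of the 10 genes. It is at chr4:130308595-130315463 on the plus strand, has 1 annotated transcript of 823 nt, and measured 2285 TPM in replicate 1 and 2350 in replicate 2. Fabp4, the carrier named for adipocytes and also strong in capillary endothelium, is at chr3:10204088-10208576 on the minus strand and measured 207 and 301 TPM. Fabp5, known as the epidermal form and also present in endothelium and macrophages, is at chr3:10012548-10016607 on the plus strand and measured 18.5 and 19.2 TPM. Of the 3 carriers, Fabp4 had the widest gap between the libraries.

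The coding sequences of the 3 carriers are related, and a stretch of 90 bases that aligns without gaps is shown to let their difference be read. The stretch is taken from the spliced coding sequence of the first-numbered transcript of each gene, bases 13 to 102 for Fabp4 and Fabp3 and 19 to 108 for Fabp5, counted from the start codon, 5′ to 3′. Capitals mark bases that differ from Fabp4, 22 in Fabp3 and 38 in Fabp5.
Fabp4: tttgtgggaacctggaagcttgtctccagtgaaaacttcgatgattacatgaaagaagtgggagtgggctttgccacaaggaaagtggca
Fabp3: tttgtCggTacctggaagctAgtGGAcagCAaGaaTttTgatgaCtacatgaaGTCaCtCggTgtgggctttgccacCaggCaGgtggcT
Fabp5: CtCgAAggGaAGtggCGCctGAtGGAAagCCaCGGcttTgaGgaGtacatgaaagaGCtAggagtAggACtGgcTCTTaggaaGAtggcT

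Over the whole protein, Fabp3 and Fabp4 were identical at 64.4% of 132 aligned residues, Fabp4 and Fabp5 at 51.5% of 132, and Fabp3 and Fabp5 at 45.9% of 133. In the 31-nt words of their transcripts, Fabp4 shared 0.288% with any other gene, Fabp5 9.27% and Fabp3 50.1%. Of the 397 shared words of Fabp3, 279 occur in the pseudogene Fabp3-ps1, which measured 24.3 and 24.1 TPM in the RSEM-layout table and 0.304 and 0 TPM in the kallisto-layout table. The pseudogene Gm6166, which shares words with Fabp5, measured 8.99 and 7.09 TPM in the first table and 0 in the second. Fabp3 also overlaps the end of Zcchc17 on the other strand by 81 bases, and Zcchc17 measured 10.6 and 8.72 TPM. Reads common to these copies leave some uncertainty in the levels of Fabp3 and Fabp5, and how they were split was not tested. Counts of Fabp3 were 46194 and 50057 in the RSEM-layout table and 46081 and 51190 in the kallisto-layout table. For Fabp5 they were 483 and 522 in the first table and 482 and 505 in the second.

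Fabp3 held 89.5% ± 2.15 of the TPM of the 10 FABP genes, Fabp4 9.76% ± 2.16 and Fabp5 0.727% ± 0.0132 (SD, n = 2). The log2 ratio of Fabp3 over Fabp4 was 3.47 in replicate 1 and 2.96 in replicate 2, and that of Fabp4 over Fabp5 was 3.48 and 3.97. Fabp3 over Fabp5 was 6.94 and 6.93, nearly equal in both libraries. The other 7 FABP genes were all below 1 TPM. The highest of them was Fabp7, the brain form, at 0.4 and 0.14 TPM, and Fabp2, Fabp6 and Pmp2 were listed at 0 in both libraries of the RSEM-layout table.

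**Figure D2:**
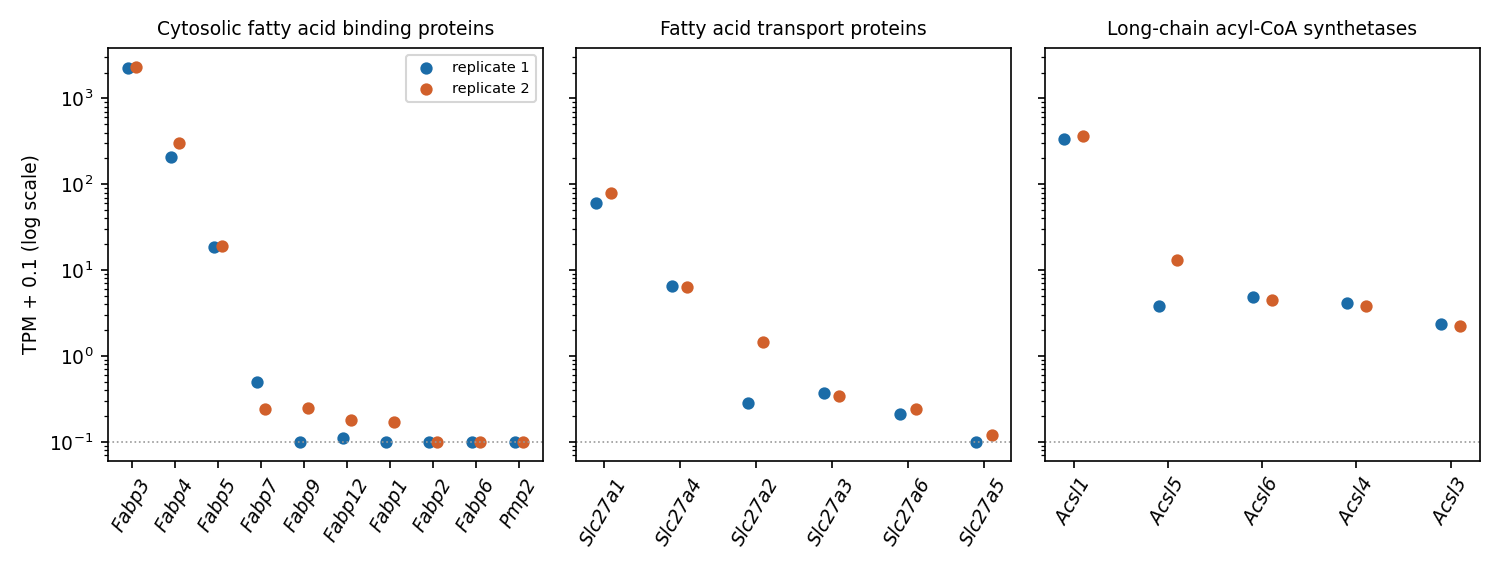
TPM + 0.1 on a log scale for the 10 cytosolic fatty acid binding proteins, the 6 SLC27 transporters and the 5 long-chain acyl-CoA synthetases; blue points are replicate 1, orange points replicate 2, and the dotted line marks 0 TPM. A single gene leads each family, with 89.5%, 90.1% and 94.9% of its TPM.

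Fabp4 and Fabp5 lie in the same chromosome 3 cluster but did not share a level. They are 187.5 kb apart within a span of 288.6 kb that holds 12 annotated genes, 7 of them protein-coding. Between them and beside them, Pmp2 was at 0 TPM in both libraries, Fabp9 at 0 and 0.15 TPM and Fabp12 at 0.01 and 0.08 TPM. The neighbours of Fabp4 on the chromosome were thus near 0, while Fabp4 itself measured 207 and 301 TPM.

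Acsl1, the main long-chain acyl-CoA synthetase of heart, fat and liver, was the only activating enzyme among the members. It is at chr8:46471037-46536051 on the plus strand and measured 335 TPM in replicate 1 and 365.5 in replicate 2, a mean of 350.2 ± 21.7 TPM (SD, n = 2). It held 94.9% ± 1.23 of the TPM of 5 synthetases. The next highest, Acsl5, known from intestine and fat, measured 3.73 TPM in replicate 1 and 13.1 in replicate 2. It was the only synthetase 2-fold or more apart.

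Transcripts of Acsl1 start in a pair of main regions 19.9 kb apart. RefSeq gives a promoter window for each, on GRCm38.p6, the same build as mm10, and both windows are placed exactly at the starts of the full-length forms Acsl1-201 and Acsl1-203. They are shown because both starts carried reads, at chr8:46470787-46471086 and chr8:46490716-46491015 on the plus strand, each from 250 bases before to 50 bases after the start. Capitals mark CG pairs, 30 in the upstream window and 4 in the downstream one, against a median of 7 over 32851 RefSeq promoters.
Acsl1 upstream start: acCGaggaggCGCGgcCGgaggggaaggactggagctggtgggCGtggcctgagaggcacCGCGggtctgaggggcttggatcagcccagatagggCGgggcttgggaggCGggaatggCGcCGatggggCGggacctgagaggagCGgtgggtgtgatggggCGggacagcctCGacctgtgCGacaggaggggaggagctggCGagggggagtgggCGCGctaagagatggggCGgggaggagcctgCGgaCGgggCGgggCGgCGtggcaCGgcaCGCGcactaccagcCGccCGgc
Acsl1 downstream start: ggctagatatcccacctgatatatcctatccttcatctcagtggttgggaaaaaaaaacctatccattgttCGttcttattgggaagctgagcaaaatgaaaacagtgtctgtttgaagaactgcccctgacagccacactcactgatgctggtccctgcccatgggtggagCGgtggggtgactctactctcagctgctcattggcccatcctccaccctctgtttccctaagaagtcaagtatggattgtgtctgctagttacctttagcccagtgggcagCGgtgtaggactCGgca

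The upstream start carried more of Acsl1 in both tables, but by unequal amounts. Acsl1-201 measured 231 TPM in replicate 1 and 255 in replicate 2, and Acsl1-203 18.7 and 25.6 TPM. Of the full-length forms, the downstream Acsl1-203 held 8.30% ± 1.16 in the RSEM-layout table and 16.4% ± 3.35 in the kallisto-layout table (SD, n = 2). Over all transcripts the downstream region held 29.1% ± 0.194 and 10.8% ± 1.63. The opposite order of the tables lies in short annotated fragments: Acsl1-205, of 368 nt, held 79.2 and 80.3 TPM in the RSEM-layout table and 0 in the other, while Acsl1-207, of 673 nt, held 2.82 and 1.68 TPM in the first and 121 and 135 TPM in the second.

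Acsl1 also has a pair of exons of 78 nt that replace each other in the coding sequence, at chr8:46521268-46521345 and chr8:46521410-46521487 on the plus strand. They are shown because nearly all full-length Acsl1 carried the same one of them. Capitals mark the 36 bases that differ between them, and 14 of the 26 residues they code for differ.
Exon of Acsl1-201 and Acsl1-203: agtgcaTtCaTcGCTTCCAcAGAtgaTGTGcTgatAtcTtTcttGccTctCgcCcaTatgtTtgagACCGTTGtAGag
Exon of Acsl1-202: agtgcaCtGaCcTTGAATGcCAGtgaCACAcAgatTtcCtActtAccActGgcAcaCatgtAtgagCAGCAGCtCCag

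Acsl1-202, the only form with the second exon, measured 0.59 TPM in replicate 1 and 0.3 in replicate 2. That was 0.171% ± 0.0912 of the full-length forms, and 0.774% ± 0.228 in the kallisto-layout table (SD, n = 2). The first exon thus stood in nearly all full-length Acsl1 in both tables.

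**Figure D3:**
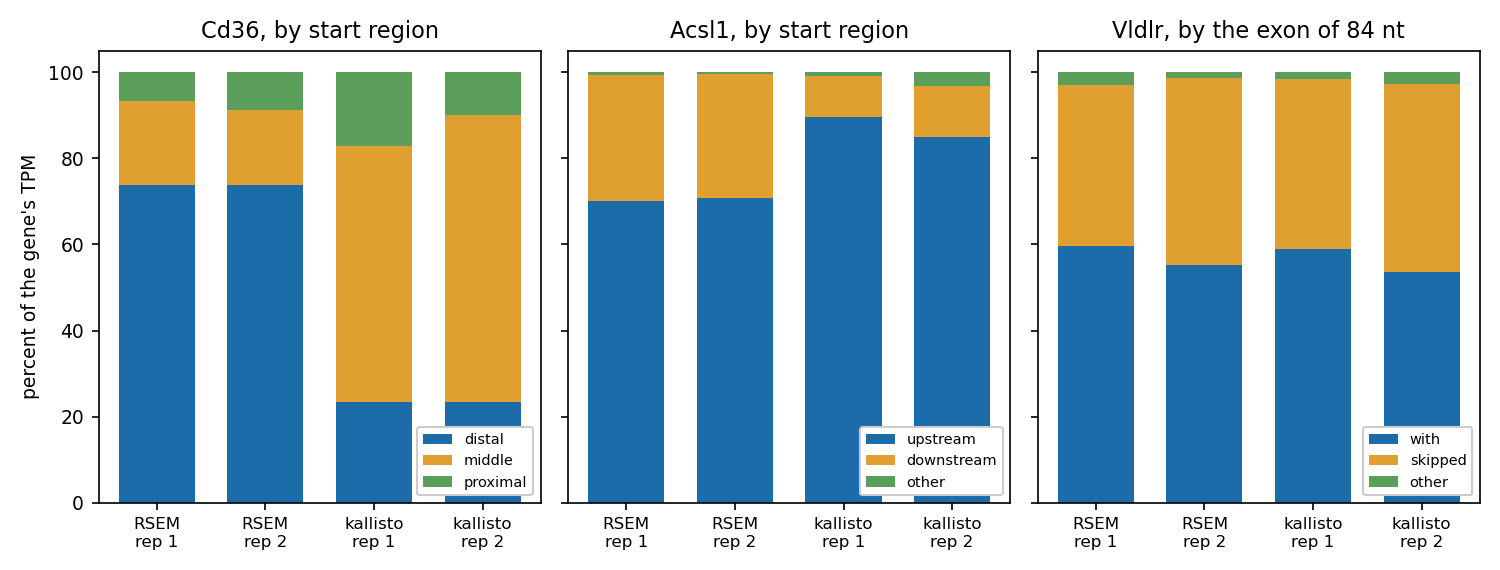
Percent of a gene's TPM by start region for Cd36 and Acsl1 and by the exon of 84 nt for Vldlr, as stacked bars for both libraries in the RSEM-layout and the kallisto-layout table. The form of Vldlr with the exon holds 53.7% to 59.6% in the 4 bars, while the distal Cd36 start holds 73.8% in one table and 23.4% in the other.

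RefSeq promoter windows of 300 bases were at hand for 5 of the members, Cd36, Fabp3, Slc27a1, Acsl1 and Vldlr, 9 windows in all. They were searched on both strands for a direct repeat of AGGTCA spaced by 1 base, the element known for PPAR and RXR, for a single AGGTCA and for TATAAA. None of the 9 windows held the direct repeat, which 0.0396% of all 32851 promoters held. A single AGGTCA stood in 1 window, that of Cd36, against 16.3% of all promoters. That window lies at the proximal start region of Cd36, which held 7.72% ± 1.34 of its TPM in the RSEM-layout table. In the kallisto-layout table that region held 13.5% ± 5.12. No window covered the distal or the middle start region. TATAAA stood in none of the 9, against 13.6% of all promoters.

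Most members stood close together in both libraries, and a few did not. Of the 10 members, 8 were higher in replicate 2 by any amount and 2 were lower. The share of all genes higher by any amount was not counted, so such counts, here and for the lists, do not set a group apart. One member, Angptl4, was 2-fold or more higher in replicate 2, against 3.3% of the 12510 genes whose mean TPM was at least 1. At 1.5-fold there were 2, Angptl4 and Gpihbp1, against 7.41% of all genes. In the kallisto-layout table Fabp4 and Slc27a1 passed this line too, which made 4 of 10, against 9.45% of 12504 genes. No member was 1.5-fold or more lower in the RSEM-layout table, against 3.34% of all genes. The median log2 ratio of replicate 2 over replicate 1, on TPM + 0.1, was 0.14 over the members and 0.02 over all genes.

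Fabp4 lay just under the 1.5-fold line, with 1.46-fold more TPM in replicate 2, and just over it in the kallisto-layout table, at 1.55-fold. Its CPM were 1.5 times as high (95% interval 1.45 to 1.56). The authors' deposited credibility intervals, 196 to 208 TPM and 288 to 302 TPM, did not overlap. They come from the same reads, each within 1 library, and are no separate support. Fabp3, Fabp5 and Cd36 stood closer together in TPM than Vldlr, at 1.11-fold. The sign of the difference changed with the scaling for Fabp3, Fabp5 and Cd36.

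The members were split by the cell types they are mainly known from. Fabp3, Slc27a1, Acsl1, Lpl and Vldlr, the 5 placed with myocytes, summed to 4516 TPM in replicate 1 and 4465 in replicate 2. Slc27a1 and Acsl1 are known from fat too, and Lpl and Vldlr act at the vessel wall, so this sum is not a myocyte share. The capillary gene Gpihbp1 stood at 25.2 and 45.4 TPM. Cd36, Fabp4, Fabp5 and Angptl4, which are known from both endothelium and fat, Cd36 from myocytes too, summed to 982 and 1076 TPM. Whole-heart values do not assign a gene to a cell type, and this split rests on general knowledge.

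Markers of fat cells were higher in replicate 2 as a set. All 11 adipocyte markers were higher in replicate 2 by any amount, and their sum was 109 TPM in replicate 1 and 537 in replicate 2. Of them 9 were 2-fold or more higher, against 3.3% of all genes with a mean TPM of at least 1. Adipoq, the fat hormone adiponectin, measured 2.28 and 25.1 TPM, Cfd, adipsin, 15.1 and 169 TPM, Ucp1, the uncoupling protein of brown fat, 3.52 and 41.8 TPM, and Pck1, a gluconeogenic enzyme also used by fat, 2.71 and 43.6 TPM. Lep, leptin, stood at 0.03 and 0.04 TPM, from 3 and 4 counts, and Plin4 at 50.9 and 68.0 TPM, neither of them 2-fold apart. Angptl4, Fabp4, Gpihbp1, Acsl5 and Lipe were thus higher in the library with more adipocyte marker RNA. Lpl, at 1749 and 1576 TPM, and G0s2, at 53.0 and 19.2 TPM, were lower there. Cd36, at 756 and 750.5 TPM, and Fabp5, at 18.5 and 19.2 TPM, were nearly level. The part of fat tissue in any of these differences was not tested.

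Endothelial markers went both ways. Their sum was 444 TPM in replicate 1 and 502.5 in replicate 2, with 3 of 12 genes higher, and the highest, the water channel Aqp1, measured 94.3 and 160.3 TPM. Kdr, Cdh5 and Pecam1, defining endothelial genes, measured 32.7 and 18.9, 39.2 and 38.0, and 41.6 and 40.9 TPM. Ly6c1, at 65.6 and 99.55 TPM, and Robo4, at 8.45 and 10.85 TPM, were higher in replicate 2 as well. Gpihbp1, with a log2 ratio of 0.85, thus stood beside a median of -0.14 for endothelial markers and 0.76 for Aqp1. Macrophage markers summed to 115 and 169 TPM, with 8 of 10 higher in replicate 2, and Lyz2, lysozyme, measured 46.9 and 86.9 TPM. The scavenger receptor Cd163 was at 3.26 and 7.26 TPM.

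Cardiac myocyte markers checked the tissue label and were nearly level. Their sum was 41282 TPM in replicate 1 and 39422 in replicate 2, led by Myl2 at 8917 and 8569 TPM, and 0 of 10 were higher in replicate 2 in the RSEM-layout table. In the kallisto-layout table their median log2 ratio was 0.03 in place of -0.06. Red cell markers in replicate 2 stood at 0.476 times their sum in replicate 1, led by the globin Hbb-bs at 8658 and 4142 TPM. All 6 genes were 2-fold or more lower, while 3.34% of all genes were 1.5-fold or more lower. Farthest apart were Slc4a1, the anion exchanger of red cells, at 2.44 and 0.89 TPM, and Hbb-bt at 1024 and 435.5 TPM. Alas2, the heme synthesis enzyme of red cells, measured 104.9 and 47.5 TPM and Hba-a1 7305 and 3377 TPM, with reads of the globin copies shared among near-identical genes. Fibroblast markers, led by Gsn, stood at 1.18 and mural cell markers, led by Rgs5, at 0.946 times their sum in replicate 1.

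**Figure D4:**
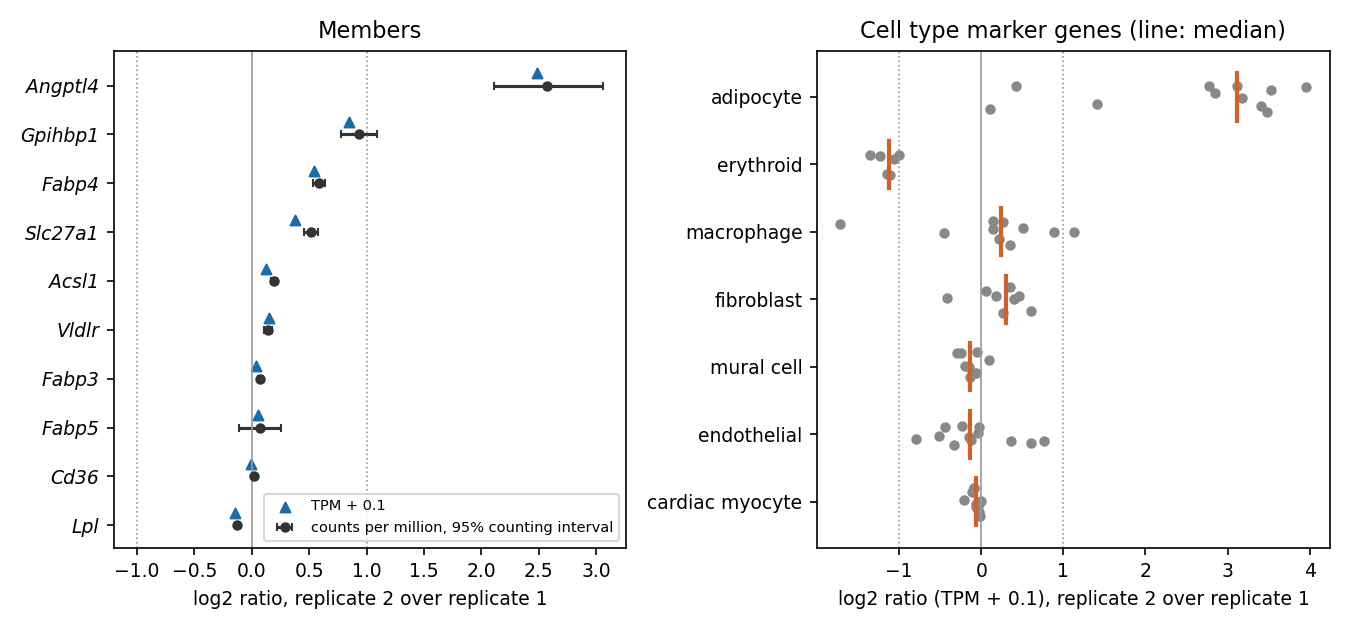
Log2 ratio of replicate 2 over replicate 1. Left, the 10 members as CPM with their 95% counting interval (black) and as TPM + 0.1 (blue triangles); right, marker genes of 7 cell types (grey points, TPM + 0.1) with each list's median (orange line). Angptl4 stands furthest right among the members, and the adipocyte markers, with a median of 3.11, furthest right among the lists.

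Genes that regulate this pathway or act after uptake were measured in 4 further lists. Of 8 regulators of endothelial fatty acid transport, all reached 1 TPM in both libraries, led by Vegfb, a growth factor known to raise endothelial fatty acid transport, at 178 and 180 TPM. Meox2, a transcription factor of cardiac endothelium, was the only one 2-fold or more lower in replicate 2, at 4.77 and 2.25 TPM. Of 8 nuclear receptors and coactivators that regulate fatty acid metabolism, the receptor Esrra was highest at 70.2 and 58.2 TPM, and none was 2-fold apart.

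All 11 genes of lipid droplet storage and release reached 1 TPM in both libraries, and 2 were 2-fold or more apart. Lipe, hormone-sensitive lipase, measured 12.6 and 29.2 TPM. G0s2, an inhibitor of the lipase encoded by Pnpla2, went the other way, at 53.0 and 19.2 TPM. Among 7 other carriers and acyl-CoA handling genes, Got2, a mitochondrial transaminase also described as a fatty acid binding protein of the plasma membrane, was highest at 296 and 283 TPM, and none was 2-fold apart.

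For 3 members, the nuclear protein-coding genes with the most similar levels were found by distance in log2(TPM + 0.1) over 4 values, both libraries in both tables. For Fabp3 these were Pln at a distance of 0.52, Gapdh at 0.65 and Atp5b at 0.79. For Fabp4 they were Lmod2 at 0.40, Rps4x at 0.43 and Etfdh at 0.46. For Gpihbp1 they were Irf2bp2 at 0.23, Tmsb10 at 0.24 and S100a10 at 0.28. With 4 values, such nearness describes level and little else.

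Levels of the members were set side by side in both tables. Over all genes the kallisto-layout TPM was a median of 1.12 times the RSEM-layout TPM, and 14.8% of 12504 genes differed by 1.5-fold or more. Of the 10 members, 0 did. The largest ratios were those of Fabp3, at 1.38 with 3058 and 3345 TPM in the kallisto-layout table, and Acsl1, at 1.28 with 395 and 499.8 TPM.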

How the data were processed

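Total RNA of mouse heart was measured in 2 libraries of 1 group. Per the deposited readme, all tables refer to mm10 and GENCODE M21; which programs made them is not given in the sources used here. Expected counts were deposited by the authors as estimated reads per gene or transcript, and TPM and FPKM were deposited by the authors per length and library. Isoform shares in percent were deposited by the authors, each transcript against its gene. Per the file headers, the authors' credibility bounds belong to the posterior mean TPM.

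The members, the 25 gene lists (141 symbols, all matched), the rule for named genes and the alternatives were chosen with earlier results of these data known. Besides the members, the genes named were the highest of each list outside the members, those at 0 in both libraries, and those with a mean TPM of 1 or more that were 2-fold or more apart (at most the 4 farthest per list); the 3 genes nearest to Fabp3, Fabp4 and Gpihbp1 were added. Lep, Plin4, Kdr, Cdh5, Pecam1, Ly6c1, Robo4, Fabp9, Fabp12, the pseudogenes and Zcchc17 were named after their values were seen. A symbol with several identifiers was represented by the more abundant one. Ratios used log2(TPM + 0.1), so low genes come out with too small a fold. Intervals of count ratios are exact at 95% (Clopper-Pearson, SciPy 1.17.1), and reads are not independent molecules. Start sites within 1000 nt were joined. Coding sequences were read from the GENCODE transcripts and aligned with Biopython 1.88, promoters from RefSeq (GRCm38.p6), and shared words of 31 nt were counted on both strands; whether strand was used in counting is not stated there. Size factors came from edgeR 4.0.16 and DESeq2 1.42.0 on rounded expected counts, for alternatives only. The fold calculation was tested on simulated data. A gene of the lipoprotein receptor list that the rule would name is not reported here.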

Additional observations from a re-analysis of the deposited data

How the results depend on the processing

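No paired analysis was possible because the libraries form 1 group. With 2 libraries, leaving out either leaves 1 value and no spread. The number of members 2-fold or more apart was 1, against 4.22% of all genes with a mean TPM of at least 1. It was also 1 without a filter on low values, against 4.97% of all genes, and 1 in the kallisto-layout table, against 4.53%. With a pseudocount of 1 TPM it was 1, against 2.60%. It was 0 of the members with a mean TPM of 10 or more, which leaves out Angptl4, against 1.83% of such genes. At 1.5-fold it was 2, against 10.8%, and 4 in the kallisto-layout table, against 12.1%. That last alternative was chosen after seeing the data. In the kallisto-layout table the log2 ratio of Fabp3 over Fabp4 was 3.66 in place of 3.21 and that of Fabp3 over Fabp5 7.26 in place of 6.94; the latter was 6.87 with a pseudocount of 1 TPM. The share of the FABP family was 92.0% for Fabp3, 7.37% for Fabp4 and 0.596% for Fabp5 in the kallisto-layout table, and 0.92% for Fabp5 in expected counts. In expected counts Slc27a1 held 84.8% of its family, Lpl 91.7% and Vldlr 65.0%; Vldlr held 69.6% in the kallisto-layout table (Lpl and Vldlr were added after seeing the data). The other values of these shares and of the 5 ratios between members moved by no more than 1 SD between the libraries. With 1 library left out this was fixed in advance, because each of 2 values lies within 1 SD of their mean. No ratio changed sign, and the cause of the shifts was not tested. The log2 ratio of replicate 2 over replicate 1 was taken under 8 alternatives of scaling, pseudocount and table. It ranged from 1.70, with a pseudocount of 1 TPM, to 2.61 for Angptl4 and from 0.83 to 0.91 for Gpihbp1. The ranges were 0.50 to 0.63 for Fabp4, 0.37 to 0.63 for Slc27a1 and -0.21 to -0.08 for Lpl. The sign of the ratio changed for Cd36 under 2 of the alternatives and for Fabp3 and Fabp5 under 1 each. Angptl4 rests on 45 and 275 counts, and shares of transcripts depend on how each table assigned reads common to several forms.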
